A study of Mus musculus with 27 samples.

Results

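Transcription factors that set position along the gut were followed in the ileal epithelium of mice given the dioxin TCDD, a persistent ligand of the aryl hydrocarbon receptor (AhR). The 9 genes, *Gata4*, *Gata6*, *Osr2*, *Cdx1*, *Cdx2*, *Onecut2*, *Pdx1*, *Hnf4a* and *Hnf4g*, were chosen by name as factors that pattern the gut from proximal to distal, and all 9 were found by Ensembl identifier among the 46078 genes listed. RNA-Seq was performed on scrapings of the distal ileum from 27 male C57BL/6 mice at postnatal day 56, 3 per group. One group received sesame oil vehicle, and 8 groups received TCDD, at 0.01, 0.03, 0.1 and 0.3 µg/kg in the lower 4 and at 1, 3, 10 and 30 µg/kg in the upper 4. All groups were gavaged every 4 d for 28 d, so handling and oil were shared by treated and vehicle mice. The scrapings hold every cell type of the mucosal surface, and the labels give the segment but no finer position.

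GATA4 is a zinc finger factor of the duodenum and jejunum whose expression fades toward the ileum, while GATA6 is present along the whole small intestine. CDX1 and CDX2 are caudal-type homeobox factors that specify intestinal epithelium, and HNF4A and HNF4G are nuclear receptors that maintain enterocyte genes. PDX1 and ONECUT2 belong to the duodenal end, and OSR2 is a zinc finger factor of the odd-skipped family. The question was whether the segment sampled, as read from these factors, shifted with dose.

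Each mouse had between 12.26 and 17.14 M reads assigned to genes (median 14.14 M). None of the 27 pairs of mice at the same dose had counts within sampling noise of each other (0 pairs). Mouse 65 at 30 µg/kg stood apart from the others of its dose, with a chi-square per degree of freedom of 74.26 against mouse 67 and 45.51 against mouse 68, where mice 67 and 68 gave 18.83 and no pair at another dose more than 22.55. Of the 46078 genes, 16741 passed the filter on low counts and were tested with edgeR's quasi-likelihood test. A gene was called at a Benjamini-Hochberg adjusted p of at most 0.05 together with a fold change of at least 1.5. The AhR response was present at 30 µg/kg, where 4 of 5 AhR target genes were called higher, and *Ahrr*, the AhR repressor, had the smallest adjusted p of them (log2 fold change 4.90, SE 0.16, adjusted p = 5e-16). Absorptive enterocyte markers were all detected (6 of 6), summing to 6546 to 13271 CPM (counts in a normalized library of 1 M reads). Both ends of this range lay at 30 µg/kg, while vehicle mice summed to 8803.5 to 9367.3 CPM. The stomach list summed to at most 0.138 CPM, with *Sox2*, *Gkn1*, *Gkn2* and *Tff1* at 0 counts. Summed smooth muscle markers ranged from 22.3 to 394.0 CPM over the mice, fibroblast markers from 48.8 to 178.2 and B cell markers from 17.0 to 86.9. T cell markers ranged from 30.8 to 82.9, exocrine pancreas markers from 1.35 to 45.2 and Paneth cell markers from 1024.4 to 3091.8. No gene of these lists was called at 30 µg/kg, but only 1 of the 5 exocrine pancreas markers was tested. Median log2 fold changes at 30 µg/kg were 1.21 for smooth muscle and -0.57 for fibroblast markers, against 0.019 over all genes. They lay between -0.17 and 0.08 for B cell, T cell and Paneth cell markers. Library indexes recur among the mice, and first or second use of an index was counted here in order of mouse number. So counted, 16 mice (vehicle to 0.3 µg/kg and mouse 41 at 1 µg/kg) were of the first use and the other 11 of the second. Whether this marks separate pools or runs is not given. Index use and the contrast of 30 µg/kg with vehicle cannot be told apart. A score of circadian clock genes also moved with dose, from between -0.757 and -0.648 in vehicle mice to between 1.012 and 1.174 at 30 µg/kg, with 12 of the 13 clock genes called (9 higher, 3 lower). Mouse 14 at 0.01 µg/kg scored 0.493, against -0.711 and -0.744 in mice 9 and 11 of its dose.

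The 9 factors spanned a wide range of expression. On the scale of CPM per kb of exon, vehicle levels were 265.8 ± 5.5 for *Hnf4a*, 112.8 ± 4.2 for *Cdx2*, 104.6 ± 13.4 for *Hnf4g*, 81.6 ± 6.0 for *Cdx1*, 24.3 ± 1.9 for *Osr2*, 13.6 ± 2.2 for *Gata6*, 2.31 ± 1.84 for *Gata4* and 0.101 ± 0.030 for *Onecut2* (SD, n = 3). The only neighbours in this order whose vehicle mice overlapped were *Cdx2* (108.0 to 116.0 CPM per kb) and *Hnf4g* (96.3 to 120.1). *Pdx1* stood last, with 22 counts in all 27 mice together, 0 to 3 counts in any mouse and 0 counts in 12 mice. A count of 0 allows up to 3 counts, or 0.175 to 0.245 CPM in these libraries, and *Pdx1* did not pass the filter, so 8 of the 9 factors were tested. The order thus ran from the enterocyte and caudal factors at the top to the duodenal factors *Onecut2* (13 to 32 counts per mouse) and *Pdx1* at the bottom.

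**Figure D1:**
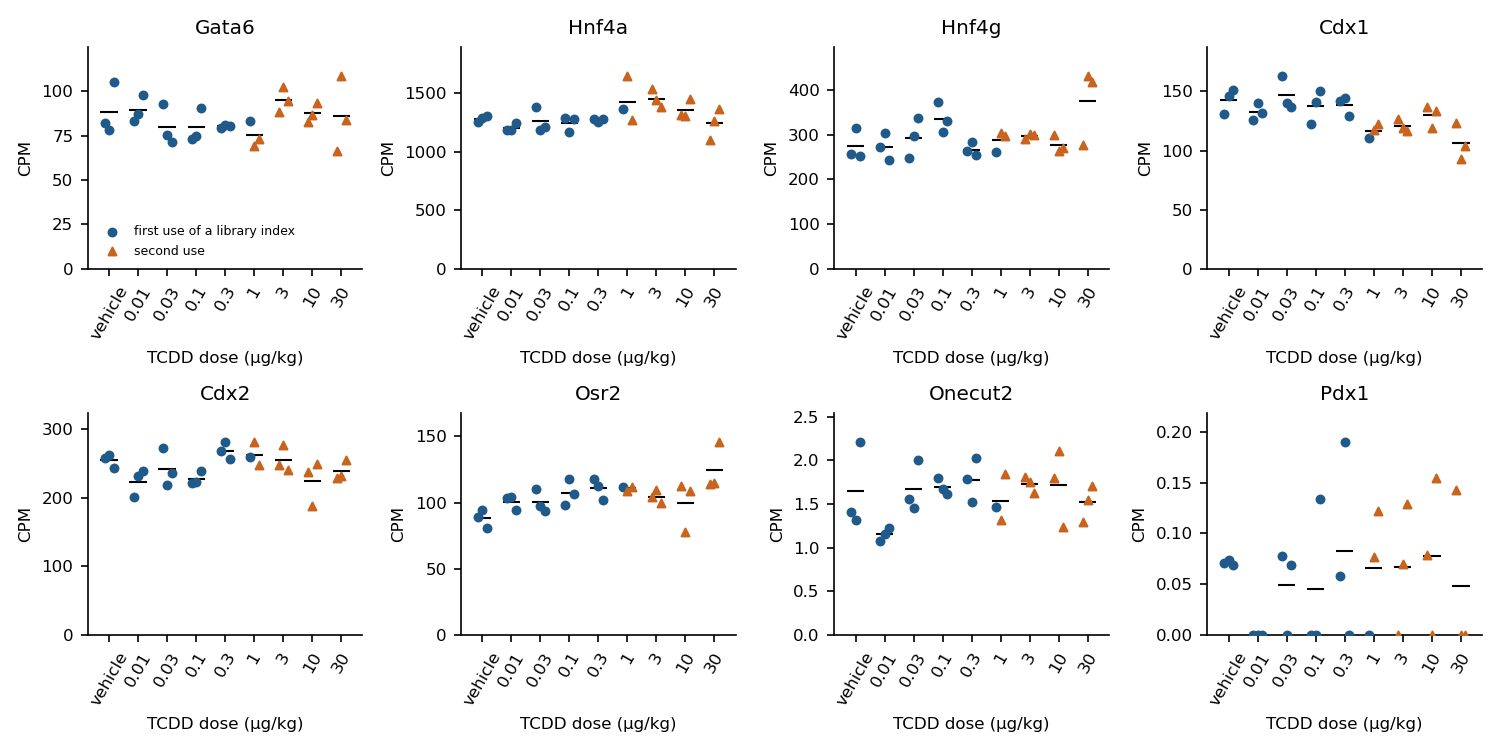
CPM of 8 factors in each mouse against TCDD dose (µg/kg), on linear axes from 0; circles mark the first use of a library index, triangles the second, and bars the group means. *Hnf4a* lies between 1098 and 1648 CPM in all mice, *Onecut2* between 1.08 and 2.21 CPM and *Pdx1* between 0 and 0.190 CPM, and at 30 µg/kg *Hnf4g* reaches 432.0 CPM and *Osr2* 145.8 CPM.

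No factor was called at any dose. The count was 0 of 8 at each of the 8 doses, against, in order of rising dose, 0%, 0%, 0%, 0%, 0.591%, 1.11%, 2.53% and 9.4% of all genes tested. DESeq2 also called 0 of the 8 at each dose. At an unadjusted p under 0.05 the counts were 0, 0, 2, 1, 2, 2, 0 and 3 of 8 in the same order, against 4.18%, 3.53%, 6.19%, 7.45%, 14.1%, 13.7%, 17.4% and 31.2% of all genes. All these comparisons share the 3 vehicle mice. With the adjusted p as the only limit, 3 of the 8 factors (37.5%) passed at 30 µg/kg and 0 at the doses below it. Of all genes 17.8% passed at 30 µg/kg, and 0%, 0%, 0%, 0%, 0.902%, 1.7% and 3.8% at the doses from 0.01 to 10 µg/kg. These were *Osr2* and *Hnf4g*, both higher, and *Cdx1*, which was lower. Over the rank of the dose, 2 of 8 factors (25.0%), *Osr2* and *Cdx1*, had a slope past the adjusted p, against 26.2% of all genes. In the test of any difference among the 9 groups, 1 factor passed, *Cdx1* (adjusted p = 0.0297), against 9.53% of all genes.

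*Gata4* (ENSMUSG00000021944, chromosome 14 of GRCm38, 63198922 to 63271692, - strand), the proximal factor, showed no difference among the 9 groups past the threshold (adjusted p = 0.694, edgeR) but varied widely between mice of a dose. In vehicle mice 2, 3 and 4 it measured 6.97, 17.0 and 3.11 CPM. At 0.01 µg/kg it was 10.8, 20.1 and 12.9 CPM, and at 0.03 µg/kg 9.22, 4.66 and 16.7 CPM. These first 3 groups overlapped throughout. At 0.1 µg/kg mice 26, 27 and 28 held 40.2, 2.70 and 7.57 CPM, the highest and the lowest *Gata4* of the whole series. At 0.3 µg/kg mice 33, 35 and 36 held 3.39, 39.2 and 13.7 CPM, so 2 mice at intermediate doses, 26 and 35, stood above all others. At 1 µg/kg the values were 11.4, 6.53 and 6.67 CPM, and at 3 µg/kg 9.12, 20.8 and 19.4 CPM. The 3 mice at 10 µg/kg were the most alike, at 5.17, 6.80 and 4.94 CPM, all within the vehicle range. At 30 µg/kg mice 65, 67 and 68 measured 8.09, 26.8 and 7.73 CPM, so 1 mouse lay above and 2 within the vehicle range.

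**Figure D2:**
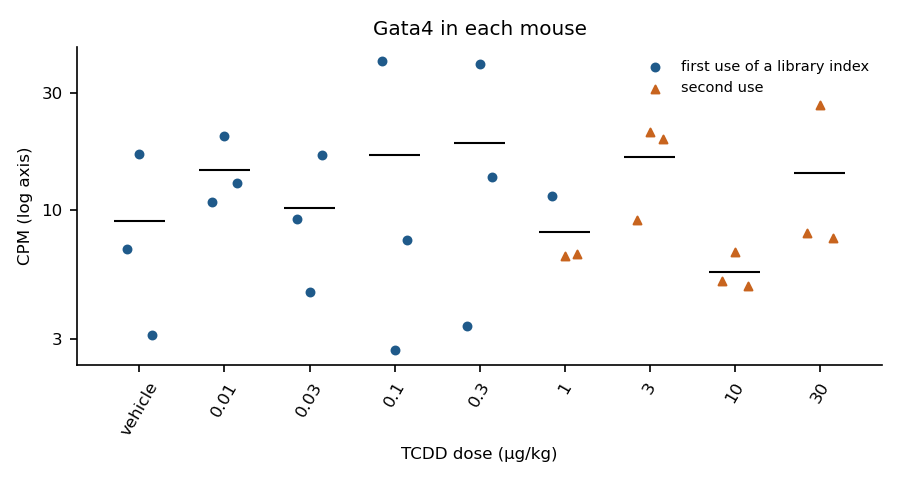
*Gata4* CPM in each mouse (log axis) against TCDD dose (µg/kg); circles mark the first use of a library index, triangles the second, and bars the group means. Values run from 2.70 to 40.2 CPM, and both ends of that range occur at 0.1 µg/kg.

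The log2 fold change of *Gata4* at 30 µg/kg was 0.66 (SE 0.78, 95% interval -0.96 to 2.27, adjusted p = 0.614, edgeR), and its slope over the dose rank was -0.005 log2 per dose step (SE 0.075, adjusted p = 0.971). The fold change at 30 µg/kg ranged from -0.19 without mouse 67 to 1.46 without vehicle mouse 3. A shift of 1.5-fold either way therefore lay inside the interval and was not detectable with 3 mice per dose. Over the 27 mice *Gata4* varied 14.8-fold, while the narrowest ranges were those of *Cdx2* (187.9 to 281.8 CPM) and *Hnf4a* (1098 to 1648 CPM) and the next widest that of *Onecut2*, at 2.05-fold. Its biological coefficient of variation within doses was 63%, at the 99.9th percentile of the 2108 genes of like expression, whose median was 12.7%. The 7 other factors tested had 8.8% to 12.3%. The *Gata4* counts of 34 to 619 per mouse place sampling error below these differences.

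Some proximal genes were higher and 1 cluster of *Hox* genes was lower in mice with more *Gata4*. The slope of each other gene on the log2 CPM of *Gata4*, with the 9 dose groups in the model, was fitted for 16740 genes after the *Gata4* values had been seen. It passed the adjusted p for 131 genes that were higher where *Gata4* was higher (0.783%) and for 22 genes that were lower (0.131%), 0.914% of genes in all. Of the 12 proximal small intestine genes tested, 4 were higher and 0 lower. *Lct*, the lactase of the jejunal brush border, had a slope of 1.53 log2 per log2 of *Gata4* (SE 0.14, adjusted p = 3.05e-07, edgeR). The others were *Slc2a2*, the glucose transporter GLUT2 (slope 0.65), *Fabp1*, a fatty acid binding protein (0.56), and *Apoa4*, an apolipoprotein (0.49). Over all 12 proximal genes the slope was positive for 9 and negative for 3. The negative slopes were those of *Akp3* (-0.22), *Slc40a1* (-0.20) and *Cybrd1* (-0.14), with adjusted p of 0.868, 0.126 and 0.667 (edgeR). Of the 39 *Hox* genes listed, which carry position along the body axis, 12 were tested. The slope was negative past the adjusted p for 7 of these, *Hoxb3* to *Hoxb9*, and positive for 0. It was -0.42 for *Hoxb9* (SE 0.05, adjusted p = 8.65e-06, edgeR) and -0.42 for *Hoxb8* (SE 0.06, adjusted p = 0.000122), and lay between -0.39 and -0.29 for the other 5. These 7 genes are neighbours in 1 cluster on chromosome 11, from 96271457 to 96347930, and so are not independent. Their annotated spans do not overlap each other, and antisense transcripts that overlap *Hoxb3*, *Hoxb5* and *Hoxb6* held at most 9 counts in any mouse. The posterior genes *Hoxa11*, *Hoxa13*, *Hoxc11*, *Hoxc12*, *Hoxc13*, *Hoxd10*, *Hoxd12* and *Hoxd13* had 0 counts in all mice.

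Single mice of these same fits illustrate the opposition and add no separate evidence for it. Mice 26 and 35, with the highest *Gata4*, had 127.0 and 195.5 CPM of *Lct* and 11.1 and 15.6 CPM of *Hoxb9*, the 2 lowest *Hoxb9* values measured. Mouse 33, with 3.39 CPM of *Gata4*, had 2.59 CPM of *Lct*, the lowest measured, and 52.1 CPM of *Hoxb9*, the highest. The order was not strict. Mouse 27, with the lowest *Gata4* (2.70 CPM), had 7.71 CPM of *Lct* and 37.1 CPM of *Hoxb9*. Mouse 58, with 6.80 CPM of *Gata4*, had 47.8 CPM of *Lct*. Mice 33 and 35 received the same dose of 0.3 µg/kg. Vehicle mice followed the same order, as mouse 3 had the most *Gata4* (17.0 CPM), the most *Lct* (60.3) and the least *Hoxb9* (29.5), and mouse 4 the least *Gata4* (3.11), the least *Lct* (7.47) and the most *Hoxb9* (43.9).

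**Figure D3:**
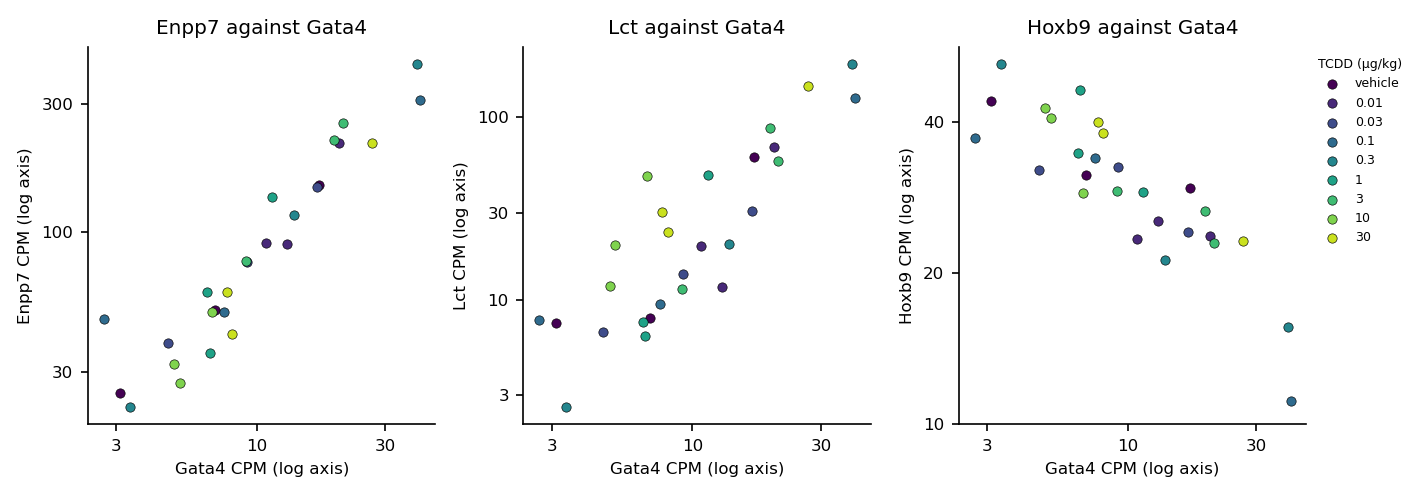
CPM of *Enpp7*, *Lct* and *Hoxb9* against CPM of *Gata4* in 27 mice, all on log axes and coloured by TCDD dose. *Enpp7* and *Lct* rise and *Hoxb9* falls with *Gata4*. Mice 65 and 68 at 30 µg/kg, at 8.09 and 7.73 CPM of *Gata4*, have 23.4 and 30.1 CPM of *Lct*. Vehicle mouse 2, at 6.97 CPM of *Gata4*, has 7.95 CPM of *Lct*.

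The 3 genes most like *Gata4* over the 27 mice, by Pearson's r of log2 CPM, were *Enpp7* (r = 0.95), which encodes the alkaline sphingomyelinase of the brush border, *Fam151a* (r = 0.95) and *Plb1* (r = 0.89), a brush border phospholipase. With each dose centred on its mean, r was 0.95, 0.95 and 0.93. *Enpp7* ranged from 22.2 to 424.2 CPM, *Fam151a* from 1.78 to 103.2 CPM and *Plb1* from 25.1 to 893.1 CPM. None of them differed past the threshold at 30 µg/kg (adjusted p = 0.749, 0.767 and 0.97, edgeR). Part of *Fam151a* overlaps *Acot11* on the opposite strand, and as the strand setting of the counting is not given, reads of these 2 genes cannot be fully told apart.

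Slopes on *Gata4* stayed similar in size, but not always past the adjusted p, when mice were left out. Without each of the 27 mice in turn, *Hoxb3*, *Hoxb5*, *Hoxb6*, *Hoxb8*, *Hoxb9*, *Lct* and *Fabp1* passed in 27 of 27 fits, *Hoxb4* in 26, *Apoa4* and *Slc2a2* in 25 and *Hoxb7* in 23. The number of genes passing in these fits ranged from 66 to 144 for higher and from 6 to 26 for lower. Without both mice 26 and 35, the 2 farthest from the median *Gata4*, the numbers were 30 and 3. *Hoxb9* (slope -0.34, adjusted p = 0.0162) and *Lct* (1.52, adjusted p = 0.000302) still passed there, while the other 6 *Hoxb* genes had slopes of -0.39 to -0.22 with adjusted p from 0.0761 to 0.834, and *Slc2a2*, *Apoa4* and *Fabp1* had 0.64, 0.52 and 0.47 with adjusted p of 0.307, 0.225 and 0.136. Within the 16 mice of the first index use, 6 of the 7 *Hoxb* genes and 4 of the 4 proximal genes passed. Of all genes 119 passed as higher and 17 as lower there. Within the 11 mice of the second use, 0 of these *Hoxb* and proximal genes passed, but of all genes only 2 passed as higher and 0 as lower. The slopes there were -0.40 for *Hoxb9* (adjusted p = 0.944, edgeR) and 1.75 for *Lct* (adjusted p = 0.0689).

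Among genes of the distal ileum no relation to *Gata4* passed the threshold. None of the 10 tested had a slope past the adjusted p, with 4 positive and 6 negative values and a median of -0.02, close to -0.002 over all genes. *Slc10a2*, the ileal bile acid uptake transporter, had a slope of -0.11 (SE 0.06), and *Fabp6*, the ileal bile acid binding protein, 0.01 (SE 0.07). Among 11 HNF4 target genes 5 had a positive slope past the adjusted p, namely *Fabp1*, *Fabp2* (0.38), *Mttp* (0.17), *Apoa4* and *Apoc3* (0.30), and 0 a negative one. *Apoc3* passed in 11 of the 27 fits that left out 1 mouse. Without both mice 26 and 35 none of these 5 passed, with adjusted p from 0.0961 to 0.949. Among 8 CDX2 target genes, *Lct* was the only 1 that passed. Both target lists share members with the proximal or enterocyte lists. No other factor followed *Gata4* past the threshold, with slopes of 0.075 for *Hnf4g* (adjusted p = 0.526) and -0.034 for *Osr2* (adjusted p = 0.839). Of markers of cell types, 1 of 6 absorptive enterocyte genes (*Fabp2*) and 1 of 4 enteroendocrine genes (*Chga*, 0.21) had a slope past the adjusted p. Without mice 26 and 35 their adjusted p was 0.0961 and 0.824 (edgeR). Of the crypt genes 0 of 4 passed. All 4 crypt and all 3 Paneth slopes were negative, while all 6 absorptive enterocyte, all 4 B cell and all 4 T cell slopes were positive. Positive and negative slopes numbered 2 and 2 for enteroendocrine, 3 and 3 for fibroblast and 2 and 4 for smooth muscle genes. The part of cell type makeup in the *Gata4* spread was not tested. In bulk scrapings, fewer cells of a type and less RNA per cell cannot be told apart.

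**Figure D4:**
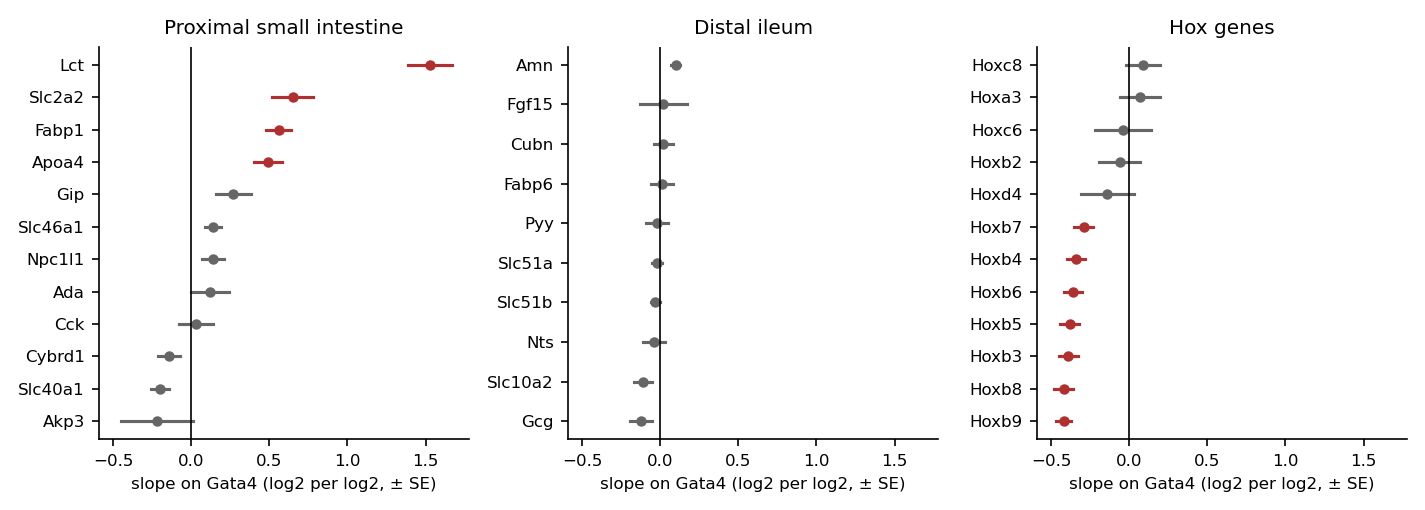
Slope of each tested gene on *Gata4* (log2 per log2, with dose groups in the model, bars ± SE) for proximal small intestine, distal ileum and *Hox* genes; red marks an adjusted p of at most 0.05. The 4 red proximal genes lie above 0, the 7 red *Hoxb* genes lie below 0, and the 10 distal ileum genes are grey and near 0.

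*Gata6* (ENSMUSG00000005836, chromosome 18, 11052064 to 11085635, + strand), the second GATA factor, showed no such spread. It measured 82.0, 78.4 and 105.3 CPM in vehicle mice and 66.4, 108.6 and 83.9 CPM at 30 µg/kg, and the groups overlapped. Its log2 fold change at 30 µg/kg was -0.04 (95% interval -0.33 to 0.25, adjusted p = 0.886, edgeR). *1010001N08Rik* overlaps it on the opposite strand with 17 to 76 counts per mouse, against 901 to 1522 for *Gata6*.

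Of the caudal factors, *Cdx1* (ENSMUSG00000024619, chromosome 18, 61018862 to 61036199, - strand) measured 130.9, 146.3 and 151.1 CPM in vehicle mice. It ranged from 122.1 to 163.1 CPM over the 12 mice at 0.01 to 0.3 µg/kg. At 1 µg/kg it was 110.5, 117.0 and 122.6 CPM, and at 3 µg/kg 126.9, 118.9 and 116.9 CPM, all below the 3 vehicle mice, as were 10.2% and 12.1% of all genes at these doses. The 10 µg/kg mice overlapped the vehicle mice again, at 136.4, 119.3 and 133.4 CPM. At 30 µg/kg the values were 123.6, 93.0 and 103.7 CPM, below all vehicle mice, a separation that 13.3% of all genes showed in this direction. *Cdx1* fell by 0.42 on the log2 scale at 30 µg/kg (SE 0.10, 95% interval -0.62 to -0.21, 0.748-fold of vehicle, adjusted p = 0.00552, edgeR; exact permutation test p = 0.1, the smallest that 3 mice against 3 allow). Its slope was -0.042 log2 per dose step (SE 0.010, adjusted p = 0.00257). Without mouse 65 the log2 fold change was -0.57 (adjusted p = 0.000216, edgeR), without mouse 67 it was -0.33 (adjusted p = 0.0517), and without the 3 mice at 30 µg/kg the slope was -0.030 (adjusted p = 0.064).

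*Cdx2* (ENSMUSG00000029646, chromosome 5, 147300805 to 147307270, - strand) measured 258.4, 262.2 and 244.2 CPM in vehicle mice and 229.2, 232.3 and 254.7 CPM at 30 µg/kg. The groups overlapped, and the log2 fold change was -0.09 (95% interval -0.30 to 0.11, adjusted p = 0.559, edgeR). At 0.01 and 0.1 µg/kg *Cdx2* lay below all vehicle mice (log2 fold changes -0.19 and -0.16), neither past the adjusted p. The share of all genes separated downward at these doses was not counted. Among the 8 CDX2 target genes, 1 was called higher at 30 µg/kg, *Sis* (sucrase-isomaltase, log2 fold change 1.40, adjusted p = 0.000341), and 0 lower, with a list median of 0.29 against 0.019 over all genes. One crypt marker also passed at 30 µg/kg. The sum of *Lgr5*, *Ascl2*, *Olfm4* and *Mki67* was 282.5 to 392.7 CPM in vehicle mice and 147.0 to 319.2 CPM at 30 µg/kg, and these ranges overlapped. *Lgr5*, a stem cell receptor, was called lower (log2 fold change -1.59, adjusted p = 0.00473), 1 of the 4, with a list median of -0.77. Over the dose rank *Lgr5*, *Olfm4* and *Mki67* fell (adjusted p = 0.0039, 0.0256 and 0.0106, edgeR), as did 12.8% of all genes. *Ascl2* had a slope of -0.045 (adjusted p = 0.54). The part of crypt cells in the *Cdx1* values was not tested. The 3 genes most like *Cdx1* over the 27 mice were *Mrps7*, a mitochondrial ribosomal protein (r = 0.86), *Tbrg4* (r = 0.85) and *Gusb*, a lysosomal glucuronidase (r = 0.84), with r of 0.67, 0.73 and 0.75 after centring each dose.

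*Osr2* (ENSMUSG00000022330, chromosome 15, 35296098 to 35303305, + strand) lay above the vehicle mice at most doses and passed the adjusted p at 30 µg/kg. Vehicle mice measured 88.7, 94.7 and 80.8 CPM. From 0.1 to 3 µg/kg all 12 mice lay above all vehicle mice, between 98.2 and 118.1 CPM, a separation shown upward by 7.01%, 8.06%, 10.3% and 12.4% of all genes, with log2 fold changes of 0.29, 0.33, 0.33 and 0.25 and adjusted p of 0.719, 0.48, 0.194 and 0.351 (edgeR). At 10 µg/kg the mice measured 112.5, 77.5 and 109.0 CPM, 1 of them below all vehicle mice. At 30 µg/kg they measured 114.3, 114.5 and 145.8 CPM, above all vehicle mice, a separation that 13.7% of all genes showed in this direction. *Osr2* rose by 0.50 on the log2 scale at 30 µg/kg (SE 0.12, 95% interval 0.26 to 0.74, 1.42-fold, adjusted p = 0.00448, edgeR; exact permutation test p = 0.1). Its slope was 0.036 log2 per dose step (SE 0.011, adjusted p = 0.019). The adjusted p at 30 µg/kg stayed past its limit in 6 of 6 fits without 1 mouse, at log2 fold changes of 0.38 to 0.56, all under the fold limit (0.53 without mouse 65), but the slope was 0.026 (adjusted p = 0.088) without mouse 68. The genes most like *Osr2* were *Hexdc*, a hexosaminidase (r = 0.83), *Ago4*, an argonaute protein (r = 0.79), and *Rara*, the retinoic acid receptor alpha (r = 0.79), with r of 0.75, 0.63 and 0.70 after centring each dose.

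Of the HNF4 pair, *Hnf4a* (ENSMUSG00000017950, chromosome 2, 163506808 to 163572910, + strand) measured 1254.1, 1289.9 and 1305.6 CPM in vehicle mice and 1097.6, 1266.4 and 1366.0 CPM at 30 µg/kg. The groups overlapped, and the log2 fold change was -0.05 (95% interval -0.24 to 0.15, adjusted p = 0.788, edgeR). *Hnf4a* lay below all vehicle mice at 0.01 µg/kg (-0.09) and above them at 3 µg/kg (0.18), neither past the adjusted p. Upward separation at 3 µg/kg was shown by 12.4% of all genes. Its highest value, 1648.3 CPM, was in mouse 43 at 1 µg/kg. *Hnf4g* (ENSMUSG00000017688, chromosome 3, 3508030 to 3658052, + strand) measured 256.2, 315.8 and 253.4 CPM in vehicle mice and 277.5, 432.0 and 419.2 CPM at 30 µg/kg. Mice 67 and 68 were thus above all others in the series and mouse 65 within the vehicle range. *Hnf4g* rose by 0.45 on the log2 scale (SE 0.14, 95% interval 0.17 to 0.73, 1.37-fold, adjusted p = 0.0239, edgeR; exact permutation test p = 0.2). The adjusted p stayed past its limit in 2 of 6 fits without 1 mouse. It missed the limit without vehicle mouse 2, vehicle mouse 4, mouse 67 or mouse 68 (0.34 to 0.40, adjusted p from 0.0952 to 0.161), while without mouse 65 the log2 fold change was 0.60 and passed both limits. Of the 11 HNF4 target genes, 2 were called higher at 30 µg/kg, *Ttr*, transthyretin (log2 fold change 1.40, adjusted p = 0.0102), and *Fabp1* (1.74, adjusted p = 0.0242), and 0 lower, with a list median of 0.36. Over all genes 9.4% were called, with a median of 0.019. The 11 genes summed to 15215.6 to 16297.7 CPM in vehicle mice and 8643.4 to 27840.4 CPM at 30 µg/kg. The part of enterocyte content in the *Hnf4g* and target gene values was not tested.

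*Onecut2* (ENSMUSG00000045991, chromosome 18, 64340020 to 64400987, + strand) measured 1.41, 1.32 and 2.21 CPM in vehicle mice and 1.29, 1.55 and 1.71 CPM at 30 µg/kg. The groups overlapped, and the log2 fold change was -0.13 (95% interval -0.64 to 0.38, adjusted p = 0.772, edgeR). At 13 to 32 counts per mouse a change of 1.5-fold downward lies inside that interval. At 0.01 µg/kg *Onecut2* lay below all vehicle mice (log2 fold change -0.51), not past the adjusted p. *Pdx1* (ENSMUSG00000029644, chromosome 5, 147269959 to 147275848, + strand) had 0.0692 to 0.0734 CPM in vehicle mice, which is a single count each, and 0.143, 0 and 0 CPM at 30 µg/kg.

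**Figure D5:**
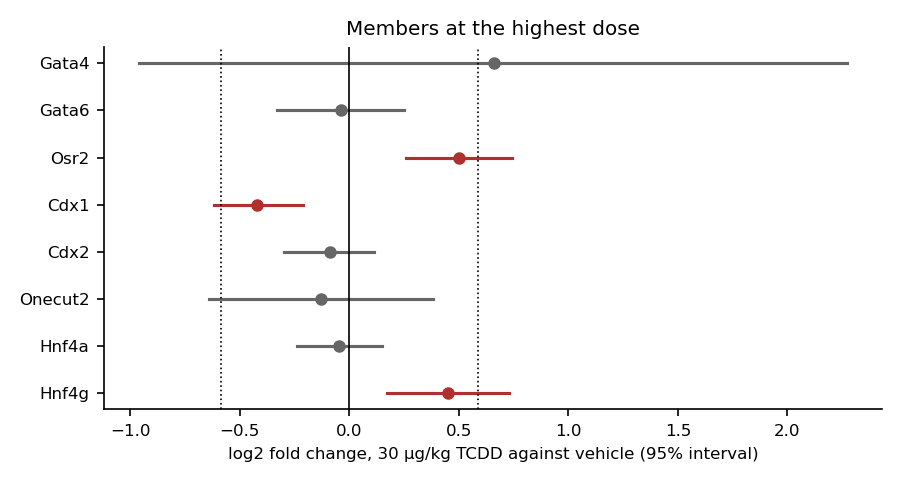
Log2 fold change of the 8 factors tested, 30 µg/kg TCDD against vehicle (3 mice each), with 95% intervals from the edgeR fit; dotted lines mark 1.5-fold and red marks an adjusted p of at most 0.05. *Osr2* and *Hnf4g* lie above 0, *Cdx1* lies below 0, all 3 inside the dotted lines, and the interval of *Gata4* spans -0.96 to 2.27.

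The changes of *Osr2*, *Cdx1* and *Hnf4g* at 30 µg/kg stood beside changes in index use and clock score. Adjusted for index use, the changes were 0.52, -0.54 and 0.26 (adjusted p = 0.198, 0.12 and 0.652, edgeR). Index use differed within a dose only at 1 µg/kg, where mouse 41 was of the first use and mice 43 and 44 of the second. That adjustment rests on these mice alone, so it cannot separate index use from dose. Adjusted for the clock score, the changes were 0.64, -0.34 and 0.80 (adjusted p = 0.405, 0.589 and 0.382, edgeR). Scores of vehicle and 30 µg/kg mice did not overlap, and of all genes 10 were called at 30 µg/kg under this adjustment, against 1574 without it. It therefore cannot cleanly separate clock score from dose. Against the 3 mice at 3 µg/kg, which share the second index use, the differences at 30 µg/kg were 0.26, -0.18 and 0.34 (adjusted p = 0.332, 0.453 and 0.253). With the *Gata4* level as a covariate they were 0.52, -0.39 and 0.40 (adjusted p = 0.00375, 0.00836 and 0.0346). TMM normalization raised log2 fold changes at 30 µg/kg by 0.13 over library size alone, under which *Osr2* was 0.37 (adjusted p = 0.028) and *Hnf4g* 0.30 (adjusted p = 0.0808).

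Position genes other than the 9 factors moved in both directions at 30 µg/kg. Over all genes 9.4% were called at this dose, with a median log2 fold change of 0.019. Of the 12 proximal genes tested, 2 were called higher and 2 lower, with a median log2 fold change of 0.27. *Slc2a2* rose from 8.45 ± 4.15 to 241.9 ± 168.5 CPM (SD, n = 3, log2 fold change 4.84, adjusted p = 0.00014, edgeR) and *Fabp1* from 3.23 ± 2.03 to 10.8 ± 5.09 CPM. *Slc40a1*, the iron exporter ferroportin, fell from 161.0 ± 29.0 to 31.9 ± 10.0 CPM (log2 fold change -2.34, adjusted p = 3.65e-06), and *Slc46a1*, the folate transporter, from 11.0 ± 1.08 to 6.54 ± 1.42 CPM. Of the 10 distal genes, 4 were called higher and 2 lower, with a median of 0.32. *Cubn*, the receptor for intrinsic factor (log2 fold change 1.01), *Slc10a2* (0.75) and the hormone genes *Nts* (1.09) and *Pyy* (1.01) rose. *Fgf15*, the ileal hormone (-3.24), and *Fabp6* (-0.94) fell. Of the 4 enteroendocrine markers 3 were also called higher at this dose, while *Gcg*, a hormone gene of the distal list, was at 0.10 (adjusted p = 0.843, edgeR). The part of enteroendocrine cells in the *Nts* and *Pyy* values was not tested. *Slc2a2* and *Fabp1* are thus 2 genes that followed both dose and *Gata4*. Of the 12 *Hox* genes tested, 0 were called at 30 µg/kg (0 also at an adjusted p of at most 0.05), with *Hoxb9* at a log2 fold change of -0.05 (SE 0.36, adjusted p = 0.937). Of the 8 colon genes listed, 1 was called lower, *Car4* (-1.07), and 0 higher.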

How the data were processed

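The authors checked reads with FastQC, trimmed them with Trimmomatic, aligned them to GRCm38 with TopHat2 and deposited raw counts per Ensembl gene, 1 table per mouse. HTSeq and DESeq are also named in the submitters' processing notes. The strand setting is not given in the sources used here, so antisense partners of *Gata6*, *Pdx1* and *Hnf4a* may share reads. Between 44.48% and 49.52% of uniquely aligned reads matched no feature. Symbols, coordinates and exon lengths came from GENCODE M21.

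Counts were normalized by TMM and fitted with edgeR 4.0.16 (R 4.3.3) over all 27 mice, with 9 groups and no covariate, after filterByExpr (16741 genes). The same filter was used for a slope over the dose rank and a test of any group difference. Standard errors are the estimate over the square root of F. Log2 CPM used a prior count of 2. The clock score comes from the clock list. The fit was tested on simulated data. Alternatives were DESeq2 1.42.0, other scalings and filters, index use and clock score as covariates, subsets of mice and leaving out each mouse. The *Gata4* slopes, the *Gata4* covariate and the comparison of 30 with 3 µg/kg were added after the values were seen. The 9 factors and all gene lists (proximal, distal, colon, stomach, *Hox*, HNF4 and CDX2 targets, other gut transcription factors, cell type markers, clock and AhR targets) were chosen with earlier results of these data known. Named from a list were genes called at 30 µg/kg (at most 4 per direction), markers at 0 counts, genes past the adjusted p on *Gata4*, and the 3 genes most correlated with *Gata4*, *Osr2* and *Cdx1*. Other list genes named were picked after their values were seen. The mice shared cages, which the labels do not give, so cage and dose cannot be told apart. The single result of 1 list gene is not reported here.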

Additional observations from a re-analysis of the deposited data

How the results depend on the processing

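Each alternative changed 1 choice, except DESeq2, which replaced normalization, dispersion model and test together. Genes called (0, 0, 0, 0, 99, 185, 423 and 1574 from 0.01 to 30 µg/kg) numbered 3, 8, 31, 169 and 308 at 0.01, 0.1, 0.3, 1 and 3 µg/kg with no filter, and 3, 5, 20 and 166 at 0.01, 0.1, 0.3 and 1 µg/kg with DESeq2. At 0.3 µg/kg 1 gene was called with upper-quartile normalization, library size only, at least 10 counts in every mouse or the clock score. Fits of only the 6 mice compared gave 2, 3, 344 and 667 at 0.03, 0.3, 3 and 30 µg/kg. From 1 to 30 µg/kg the counts were 151, 285, 636 and 2976 with no fold limit, 31, 6, 48 and 482 with index use as a covariate, and 0, 0, 4 and 10 with the clock score. Library size only moved the calls at 30 µg/kg to 604 higher and 1048 lower (36.6% higher), against 908 and 666 (57.7%). Without 1 mouse the counts ranged from 0 to 1 at 0.01, 0.1 and 0.3 µg/kg, 12 to 107 at 1, 67 to 225 at 3, 208 to 450 at 10 and 878 (without mouse 67) to 2508 (without mouse 65) at 30 µg/kg.

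The 0 factors called at 30 µg/kg became 3 with no fold limit and 0 to 1 without 1 mouse. Genes with a trend (4379) were 195 with index use, 6 with the clock score, 25 and 237 within the first and second index use and 2394 without the 3 mice at 30 µg/kg. The 2 factors with a trend became 1 with library size only (*Cdx1*), 0 with index use, with the clock score and within either index use, 1 without the 3 mice at 30 µg/kg (*Hnf4a*, slope 0.031, adjusted p = 0.0306, edgeR), and 1 to 2 without 1 mouse.

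Reversed signs were found only among factors not past the threshold. At 30 µg/kg they were *Gata4* against 3 µg/kg (-0.216) and *Gata6* with index use (0.186), and without 1 mouse the log2 fold change ranged from -0.185 to 1.463 for *Gata4*, -0.239 to 0.106 for *Gata6*, -0.119 to 0.006 for *Hnf4a* and -0.288 to 0.147 for *Onecut2*. Slopes reversed for *Gata4* with index use (0.156), with the clock score (0.054) and within the first (0.167) and second use (0.116), and for *Gata6* with library size only (-0.011), index use (-0.016), the clock score (-0.052) and the first use (-0.036). They reversed for *Cdx2* with DESeq2 size factors (0.0), index use (0.001), the first use (0.02) and without the 3 mice at 30 µg/kg (0.005), for *Onecut2* in the second use (-0.03), and for *Hnf4a* with index use (-0.012) and in the second use (-0.087). Without 1 mouse slopes ranged from -0.007 to 0.004 for *Cdx2*, -0.056 to 0.016 for *Gata4* and -0.007 to 0.013 for *Gata6*. The causes were not tested. Depth limits *Pdx1* and *Onecut2* most. No paired analysis was possible because the labels number mice only once across groups.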

Other observations

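Other transcription factors of the gut epithelium moved in both directions at 30 µg/kg. Of 21 tested, 2 were called higher and 2 lower, and 6 passed the adjusted p, with a median log2 fold change of 0.16. Over all genes 9.4% were called and 17.8% passed the adjusted p, with a median of 0.019. *Ppara*, the fatty acid receptor of enterocytes, rose from 26.9 ± 3.58 to 50.4 ± 4.02 CPM (SD, n = 3, log2 fold change 0.91, adjusted p = 1.7e-05, edgeR), and *Prox1*, a homeobox factor, from 11.8 ± 1.42 to 18.3 ± 4.52 CPM (0.64, adjusted p = 0.0106). *Elf3*, an epithelial ETS factor, fell from 405.9 ± 16.8 to 210.4 ± 50.3 CPM (-0.95, adjusted p = 0.000778), and *Sox9*, a factor of crypt cells, from 29.5 ± 7.23 to 18.6 ± 5.24 CPM (-0.66, adjusted p = 0.0432). *Vdr* and *Atoh1* passed the adjusted p at 0.58 each, just under the fold limit. None of the 21 had a slope on *Gata4* past the adjusted p. *Onecut1* had 0 counts in all mice.

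Enteroendocrine markers were higher at 30 µg/kg in 3 of 4 genes, with summed levels of 69.0 to 84.6 CPM in vehicle mice and 159.3 to 169.6 CPM at 30 µg/kg. *Chgb* rose by 1.19, *Chga* by 1.10 and *Neurod1* by 0.88 on the log2 scale (adjusted p = 5.89e-05, 0.00236 and 0.035, edgeR).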
